A study of Mus musculus with 62 samples.

Results

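The epididymis of germ-free (GF) mice was compared between its first and its last part, the caput and the cauda. Members were chosen by label, as the 6 GF caput libraries and the GF cauda libraries 1, 2, 3, 5 and 6, so that 11 of the 62 libraries of the series were used. GF cauda 4 was left out. That cauda was swollen, and the authors set it aside for this and for its outlying transcriptome. All mice were C57BL/6 males of 8 to 14 weeks. The GF mice came from isolators kept sterile in a gnotobiotic core and carried no microbiota, and each library held tissue of 1 animal. The labels do not say which caput and which cauda came from the same animal. Specific pathogen-free (SPF) mice derived from purchased C57BL/6 stock (4 caput, 4 cauda) were set beside the GF mice. So were a second SPF set (5 and 5) and recolonized GF mice (3 and 3). According to the paper, the recolonized mice came from another laboratory, from GF mice reared in conventional housing and bred for many generations. Library names of the second SPF set begin with RECOL_CON, which marks it as the control of the recolonized mice. No segment between caput and cauda was sampled, and no division of the caput into smaller segments is described, so the initial segment at its upper end is taken to be part of it.

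The epididymis is a single long tubule in which sperm leaving the testis become able to swim and to fertilize, and in which they are then stored. Its epithelium secretes a different mixture of proteins in each segment: antimicrobial defensins, small-ligand carriers, protease inhibitors and antioxidant enzymes bathe the sperm in turn. The caput is kept differentiated by androgens and by factors that arrive in the fluid from the testis, known as lumicrine signals, while the cauda has a low pH, concentrates sperm and is wrapped in thick smooth muscle. The comparison asks what regional identity looked like in animals that had never met microbes.

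Values are TPM as deposited by the authors, transcript abundances corrected for length and scaled so that each library adds up to the same total. Differences are cauda minus caput on the log2(TPM + 1) scale, so a negative value is higher in the caput, and the added 1 makes changes of genes near 0 look smaller. A gene was tested if its mean was at least 1 TPM over the 11 libraries, and a call needed a change of 1.5-fold or more and an adjusted p no higher than 0.05 (limma, Benjamini-Hochberg over all tested genes). Caput values are given as lowest, median and highest of the 6 libraries, cauda values for libraries 1, 2, 3, 5 and 6 in that order, and errors of differences are standard errors. TPM keep no read counts, so depth is unknown and the spread between libraries is the only measure of precision.

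Marker genes matched the label of every library. Pearson's r of log2(TPM + 1) was 0.977 to 0.993 between caput libraries, 0.960 to 0.987 between cauda libraries and 0.782 to 0.816 between a caput and a cauda library. The caput genes Lcn8 and Gpx5 and the cauda gene Cd52 marked every library as labelled, with no overlap. Of the marker lists, 18 of 22 caput markers were called higher in the caput and 8 of 10 cauda markers higher in the cauda, against the direction of Rnase9 and Spag11a in the former list and Slco4c1 in the latter, with Adam7, Lcn12 and Krt19 not called. GF cauda 3 held a trace of caput transcripts: the 15 genes most raised in the caput summed there to 0.344% of their caput mean, against 0.00184 to 0.0184% in the other cauda libraries. All 15 did so at nearly the same share, 0.273 to 0.474%. For some caput genes, though not all, the difference is therefore also given without that library. GF caput 6 had the fewest genes above 0 TPM, 13747 against 16699 to 17310.0 in the other caput libraries. Without both libraries 5493 genes were called, an alternative chosen after the data were seen, and with GF cauda 4 kept in 6011 were.

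A large part of the transcriptome differed between the regions. Of 12459 tested genes, 5800 (46.6%) were called, 3833 (30.8%) higher in the cauda and 1967 (15.8%) higher in the caput. The median difference of all genes was 0.22 rather than 0, and it fell to 0.02 when TPM were rescaled by median-of-ratios, which gave 2854 genes higher in the cauda and 2639 higher in the caput, and to 0.05 with quantile normalization, which gave 2665 and 2412. The cauda's share of the calls was thus 66.1% as deposited and 52.0 or 52.5% after rescaling, and list medians below are read beside that shift. Gene families and cell types were read from 48 lists with 944 genes in the table, of which 592 passed the filter of 1 TPM, and counts below are of those. At 8-fold or more the split was nearly even, with 225 genes (1.81%) higher in the cauda and 235 (1.89%) higher in the caput. The values of the 2 regions did not overlap in 6153 genes (49.4%). In bulk tissue fewer cells of a type and less RNA per cell cannot be told apart.

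Among the leading caput genes, Spag11b, a defensin-like gene whose rat counterpart kills bacteria and binds sperm, reached 21448, 24819 and 26292 TPM in the caput and 2.01, 2.83, 69.6, 0.96 and 0.16 TPM in the cauda. The difference was -12.38 ± 0.81, adjusted p = 4.5e-08, and -13.38 without cauda 3. Lcn8, a lipocalin that binds retinoids, measured 19142, 23453 and 27741 against 3.19, 6.58, 87.2, 0.50 and 0 TPM, a difference of -12.09 ± 0.89, adjusted p = 1.4e-07 (-13.1 without cauda 3). Cst11, of the cystatin family, measured 10236, 11893 and 13525 against 0.39, 0.60, 40.2, 0 and 0 TPM (-12.24 ± 0.80, adjusted p = 4.5e-08; -13.26 without cauda 3). In these 3 genes the cauda was at the trace level of 1 library and at or near 0 in the rest. Gpx5, a secreted glutathione peroxidase that needs no selenium (RefSeq GRCm38.p6, chr13:21286429-21292727), measured 27329.5, 29483 and 32094 in the caput and 61.4, 37, 131, 20.8 and 48.7 TPM in the cauda. Its difference was -9.19 ± 0.34, adjusted p = 2.2e-10, and a low level was present in all 5 cauda libraries. The 15 genes with the largest fall toward the cauda were these first 3 and Defb25, Lcn9, Lcn10, Cst8, Cst12, Clpsl2, Teddm1a, Teddm2, Ly6g5b, Ly6g5c, Rnase10 and 9230104L09Rik, the last 12 with differences of -11.96 to -10.29, and together the 15 made up 15.5 ± 1.02% of caput TPM and 0.0118% of cauda TPM.

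The cauda had leading genes of its own. Cd52 encodes a small lipid-anchored glycoprotein that the cauda epithelium passes to the sperm surface, and its 669.9, 818 and 902 TPM in the caput stood against 74286, 87023, 63546, 91959 and 72061 TPM in the cauda. It held 7.78 ± 1.16% of all cauda TPM, and the difference was 6.61 ± 0.12, adjusted p = 5.3e-13. Gpx3, the secreted selenium-containing glutathione peroxidase, rose from 313, 360.3 and 446 TPM to 17979.9, 21811, 17746, 22073 and 17192 TPM (5.7 ± 0.12, adjusted p = 1.4e-12). Both genes were clearly expressed in the caput as well, unlike the next ones. Crisp1, a sperm-coating protein that takes part in the meeting of sperm and egg, was at 3.84, 12.1 and 23.2 TPM in the caput and 8973, 10094, 7651, 6357 and 5678 TPM in the cauda (9.24 ± 0.33, adjusted p = 1.6e-10). Ltf, the iron-binding lactoferrin, was at 0, 0.010 and 0.030 against 936, 873, 677, 1264 and 1185 TPM (9.89 ± 0.14, adjusted p = 1.3e-13). Npy, neuropeptide Y, was at 1.01, 4.96 and 16.2 against 2065, 3034, 3086, 2253 and 1921 TPM (8.64 ± 0.51, adjusted p = 1.7e-08). Pnmt, the enzyme that makes adrenaline from noradrenaline, was at 0, 0.10 and 0.26 against 362, 450.4, 278, 434 and 452 TPM (8.46 ± 0.13, adjusted p = 2.1e-13). No caput value of these genes came near the lowest cauda value. The 15 genes with the largest rise, among them Defb9, Defb11, Defb28, Defb38, Defb40, Defb43, Ly6f, Wfdc13, Serpina1f, Cwh43 and Gm17252 beside Crisp1, Ltf, Npy and Pnmt, made up 4.06 ± 0.419% of cauda TPM and 0.00620% of caput TPM.

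**Figure D1:**
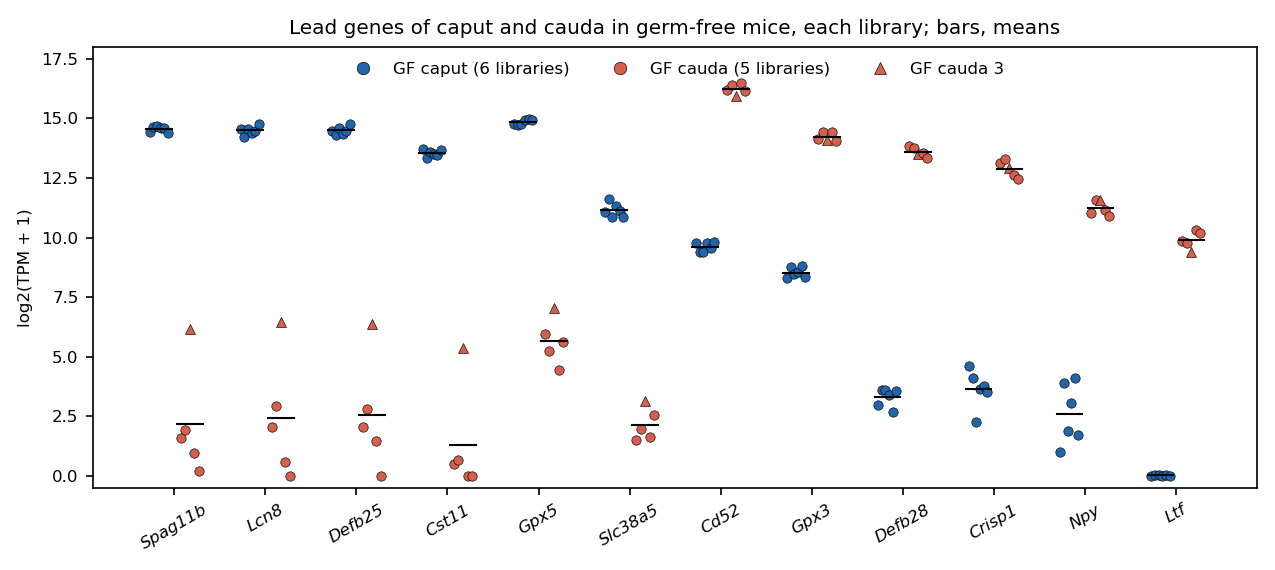
Levels of 12 lead genes in each GF library, as log2(TPM + 1), with caput libraries in blue, cauda libraries in orange, cauda 3 as triangles and bars for means. The caput and cauda values of each gene lie apart, and for Spag11b, Lcn8, Defb25 and Cst11 cauda 3 (69.6 TPM in Spag11b) sits above the other cauda libraries.

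The secreted families took different shares of each region's RNA. Beta-defensins made up 11.5 ± 0.714% of caput TPM and 3.21 ± 0.352% of cauda TPM (mean ± SD), and lipocalins 5.58 ± 0.448% and 1.01 ± 0.228%. Ly6 and PATE proteins held 1.93 ± 0.106% and 0.716 ± 0.085%, and the RNase A family 0.477 ± 0.0606% and 0.144 ± 0.0219%. These 4 families were the larger in the caput. Protease inhibitors held 3.39 ± 0.171% in the caput and 5.45 ± 0.186% in the cauda, and CRISP proteins 0.0159 ± 0.00158% and 0.784 ± 0.179%. Antioxidant enzymes differed less, at 3.51 ± 0.209% and 2.54 ± 0.239%, but by different genes: Gpx5 alone was 2.97 ± 0.212% of caput TPM and 0.00597% of cauda TPM, and Gpx3 alone was 0.0372% of caput TPM and 1.94 ± 0.238% of cauda TPM. The 10 most abundant genes took 19 ± 1.19% of the caput and 18.7 ± 1.83% of the cauda (exact two-sided permutation test, p = 0.74), while the 50 most abundant took 39.3 ± 1.54% and 35.9 ± 2.23% (p = 0.022 by the same exact test). The cauda held more genes above 1 TPM, 12412 ± 286 against 11594 ± 214 (exact two-sided permutation test, p = 0.0043), but above 0.1 TPM the numbers, 15761 ± 364 and 15191 ± 736, gave p = 0.095 by the same exact test.

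**Figure D2:**
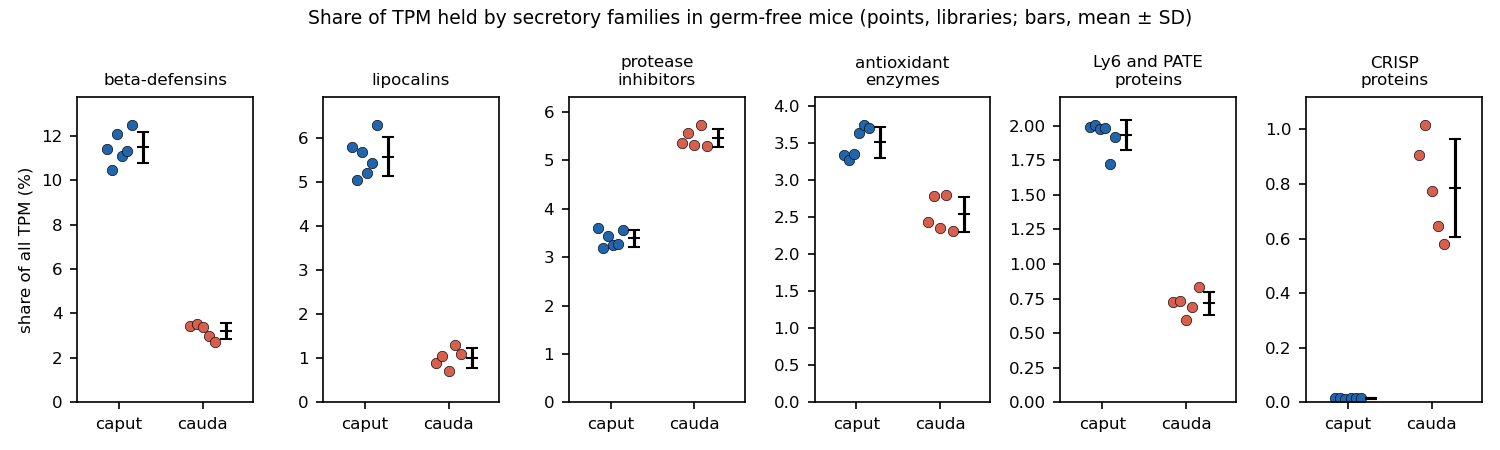
Share of all TPM, in percent, held by 6 gene families in each GF library (points), with mean ± SD beside them, and with a separate scale for each family that starts at 0. Beta-defensins fell from 11.5 ± 0.714% in the caput to 3.21 ± 0.352% in the cauda, while CRISP proteins went from 0.0159 ± 0.00158% to 0.784 ± 0.179%.

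Beta-defensins are small cationic peptides with paired cysteine bridges, many of which kill microbes and several of which coat sperm. Of 45 genes in the table, 37 were tested. Of these, 18 were called higher in the caput and 18 higher in the cauda, against 15.8% and 30.8% of all tested genes. Only Defb35 was not called (0.39 ± 0.43, adjusted p = 0.44). The genes lie in 5 clusters, on chromosomes 1, 2, 14 and 8, the last with a pair of them. Of 31 pairs of adjacent called genes within a cluster, 9 had opposite directions and the rest the same direction. On chromosome 14, Defb48 and Defb47 were caput genes and Defb43, the next gene, was a cauda gene. On chromosome 8, Defb9 and Defb11 were cauda genes and Defb15, the next gene, was a caput gene. Their upstream sequences, 250 bases up to the start of each gene (RefSeq, GRCm38.p6, written 5′ to 3′ on the gene's own strand), are shown because these neighbours had the sharpest reversals. Capitals mark AGAACA or its reverse complement TGTTCT, a half-site recognized by the glucocorticoid receptor and its close relatives, on either strand, and TATAAA, the core of a TATA box, on the gene's strand.
Defb48: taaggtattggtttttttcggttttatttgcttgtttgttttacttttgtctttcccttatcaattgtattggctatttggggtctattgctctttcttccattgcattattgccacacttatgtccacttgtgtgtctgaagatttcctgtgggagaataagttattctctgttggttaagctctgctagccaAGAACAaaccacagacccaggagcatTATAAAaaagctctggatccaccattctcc
Defb47: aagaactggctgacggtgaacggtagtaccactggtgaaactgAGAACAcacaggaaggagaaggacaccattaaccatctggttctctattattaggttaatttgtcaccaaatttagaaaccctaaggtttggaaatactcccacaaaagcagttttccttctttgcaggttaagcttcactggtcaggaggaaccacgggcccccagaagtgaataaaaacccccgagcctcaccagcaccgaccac
Defb43: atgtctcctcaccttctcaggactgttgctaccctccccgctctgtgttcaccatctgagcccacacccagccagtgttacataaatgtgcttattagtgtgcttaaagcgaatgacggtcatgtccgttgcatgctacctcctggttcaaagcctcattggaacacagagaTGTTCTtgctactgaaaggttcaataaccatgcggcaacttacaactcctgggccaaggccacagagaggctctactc
Defb15: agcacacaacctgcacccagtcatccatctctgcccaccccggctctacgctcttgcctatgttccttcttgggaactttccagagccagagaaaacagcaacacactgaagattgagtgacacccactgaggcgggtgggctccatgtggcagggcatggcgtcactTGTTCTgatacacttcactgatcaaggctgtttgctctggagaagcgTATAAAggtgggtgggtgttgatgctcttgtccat
Defb11: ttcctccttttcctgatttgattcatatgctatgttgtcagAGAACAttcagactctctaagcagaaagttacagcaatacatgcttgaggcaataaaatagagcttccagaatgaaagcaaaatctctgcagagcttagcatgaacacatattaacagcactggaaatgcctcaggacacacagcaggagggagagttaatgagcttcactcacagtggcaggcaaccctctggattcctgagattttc
Defb9: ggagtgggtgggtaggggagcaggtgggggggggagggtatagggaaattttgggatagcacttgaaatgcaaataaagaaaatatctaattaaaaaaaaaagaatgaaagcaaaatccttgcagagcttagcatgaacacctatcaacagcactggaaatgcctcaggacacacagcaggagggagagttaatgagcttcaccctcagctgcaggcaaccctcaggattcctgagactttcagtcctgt
The windows lie at chr14:62984511-62984760 (minus strand), chr14:62997827-62998076 (plus), chr14:63011521-63011770 (plus), chr8:21932711-21932960 (minus), chr8:21906433-21906682 (minus) and chr8:21885435-21885684 (minus). The half-site was found once in each window except that of Defb9, and its first base lay between -209 and -56 relative to the gene's start. TATAAA was found in Defb48 at -30 and in Defb15 at -35. Over 32851 windows of the same length the half-site was present in 16.1% and TATAAA in 7.59%, and over the 9414 windows of tested genes in 10.8 and 3.92%. Among genes at least 8-fold higher in the caput with a window (176) the shares were 15.9 and 7.39%, and among those higher in the cauda (164) 20.7 and 11%. Such matches are letters in a window and not shown to be bound. Defb9 and Defb11 shared an unbroken run of 57 bases, whereas every other pair of the 6 windows shared runs of 7 to 10 bases.

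Within the chromosome 14 group, which spans chr14:62977524-63048606, Defb48 measured 13173, 15610.5 and 17882 TPM in the caput and 43.2, 49.4, 121, 44.3 and 42.3 TPM in the cauda (-8.13 ± 0.24, adjusted p = 2.6e-11). Defb47 measured 8343, 11239 and 12182 against 4.77, 7.63, 38.1, 4.78 and 3.53 TPM (-10.26 ± 0.45, adjusted p = 1.1e-09). Defb43, between them and the caput genes Defb30 and Defb42, measured 9.28, 13.1 and 20.4 against 2669, 2941, 2648, 3220.4 and 2561 TPM (7.61 ± 0.19, adjusted p = 6.1e-12). The order was thus reversed in a single gene of 5, in every library. In the second group on chromosome 8 Defb15 measured 329, 788 and 1845 against 1.51, 1.04, 5.24, 1.37 and 4.05 TPM (-7.85 ± 0.46, adjusted p = 1.6e-08), and its caput libraries spread more widely than those of most lead genes. Defb11 measured 0, 0.20 and 1.25 against 3766, 3909, 3537, 3587 and 2958 TPM (11.38 ± 0.21, adjusted p = 5.3e-13), and Defb9 0, 0 and 1.0 against 1378, 1502, 1600.0, 1239 and 1137 TPM (10.24 ± 0.18, adjusted p = 4.0e-13). Both were at or near 0 in each caput library. Near-identical copies share reads, and how the authors' quantification divided reads between genes such as Defb9 and Defb11 or Spag11a and Spag11b is uncertain. Defb48 and Defb15 fall outside the naming rule and were named after their values were seen.

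The cluster on chromosome 2 (chr2:152459055-152623053) had 11 called genes, 7 of the caput and 4 of the cauda, against 15.8% and 30.8% of all tested genes. Defb20 there measured 18096, 22739 and 28839.9 TPM in the caput and 30.6, 29.2, 95.8, 22 and 23.5 TPM in the cauda (-9.33 ± 0.31, adjusted p = 9.1e-11), and Defb25 20221, 22636 and 28258 against 3.19, 5.96, 81.5, 1.72 and 0 TPM (-11.96 ± 0.83, adjusted p = 8.2e-08; -12.92 without cauda 3). Both were among the most abundant RNAs of the caput. Defb28, in the same cluster, measured 5.35, 10.1 and 11.2 against 14648, 14040.5, 11651, 11847 and 10459.9 TPM (10.3 ± 0.18, adjusted p = 3.8e-13). The 3 genes that lie between Defb20 and Defb29, namely Defb22, Defb26 and Defb28, were all cauda genes, and the stretch from Defb29 to Defb25 held caput genes only. The first group on chromosome 8 (chr8:18974914-19295339) begins with Defb40 at 0, 0 and 1.32 TPM in the caput and 2418, 2494, 2411, 1567 and 1878 TPM in the cauda (10.85 ± 0.23, adjusted p = 1.4e-12). In that group 7 of 10 tested genes were higher in the cauda, against 30.8% of all tested genes. There the caput gene Spag11b lay next to Spag11a, which was higher in the cauda in GF mice (1.82 ± 0.20, adjusted p = 5.8e-06) though not in every other group. The pair on chromosome 1, Defb18 and Defb41, was higher in the caput.

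**Figure D3:**
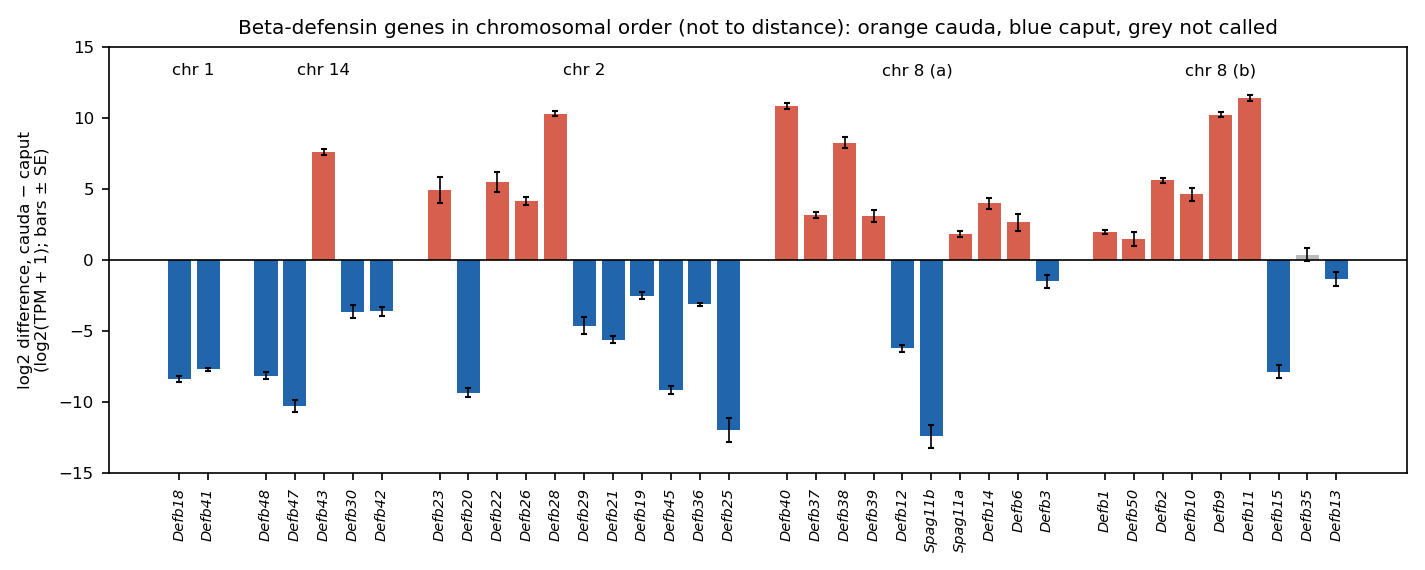
Difference between cauda and caput in GF mice for the 37 tested beta-defensin genes, as log2(TPM + 1) with bars of 1 SE, placed in chromosomal order within their clusters. In places genes of opposite direction stand side by side, as Defb47 (-10.26) and Defb43 (7.61) do, and Defb11 (11.38) and Defb15 (-7.85).

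Lipocalins carry small hydrophobic ligands, and most of those in the epididymis were caput genes. Of 12 tested, 9 were called higher in the caput and 1 in the cauda (median -5.89), against 15.8% and 30.8% of all tested genes. Lcn9 measured 9522, 10977 and 12669.9 against 1.41, 1.59, 39.5, 0 and 0 TPM, a difference of -11.82 ± 0.77 that widened to -12.76 without cauda 3. Lcn2, which traps bacterial iron carriers, was also a caput gene, at 10980.1, 12965 and 13683 against 394, 469, 504, 445 and 401 TPM (-4.84 ± 0.091, adjusted p = 5.9e-13). It differed from Lcn8 and Lcn9 in that every cauda library kept 394 TPM or more. Ptgds, which makes prostaglandin D2 and carries retinoids, was the single lipocalin higher in the cauda, at 715, 886 and 1357 against 7795, 9278, 5736, 11739 and 9776 TPM (3.16 ± 0.21, adjusted p = 5.0e-08). Lcn12 was not called as deposited (-0.22 ± 0.12, adjusted p = 0.13), and after median-of-ratios rescaling its difference of -0.45 had an adjusted p of 0.016 but stayed under 1.5-fold.

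Protease inhibitors were called in both regions. Of 49 tested, 26 were higher in the cauda and 11 higher in the caput (median 0.83), against 30.8% and 15.8% of all tested genes. The cystatins Cst11, Cst8 and Cst12 fell by more than 10 log2 units toward the cauda, with Cst8 at -10.44 ± 0.54 and Cst12 at -10.3 ± 0.56. Several inhibitors of the whey acidic protein (WAP) type went the other way. Wfdc13 measured 0.10, 0.44 and 0.96 against 685, 1028, 2416, 259 and 659 TPM (9.08 ± 0.43, adjusted p = 2.0e-09), and its cauda libraries ranged widely with cauda 3 highest. Wfdc16 (6.07 ± 0.12), Wfdc15b (4.33 ± 0.089), Wfdc9 (3.62 ± 0.18) and Wfdc10 (1.17 ± 0.099) were also cauda genes. Spink8, a Kazal-type inhibitor, measured 365, 517 and 752 against 11337, 8875, 12061, 9179 and 7761 TPM (4.19 ± 0.19, adjusted p = 1.3e-09). Serpina1f, of the serpin family, measured 2.22, 4.72 and 25.1 against 1356, 1108, 1125, 1444 and 1259.7 TPM (7.43 ± 0.54, adjusted p = 1.3e-07). The caput had its own members of the same families in Serpinf2 (-7.99 ± 0.16) and Spink12 (-4.55 ± 0.18).

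Sperm-coating and defence proteins of other families were called too, where 30.8% of all tested genes were higher in the cauda and 15.8% in the caput. CRISP proteins gave 4 higher in the cauda and 1 in the caput of 7 tested: Crisp1 was a cauda gene as given above, and Crisp4, its relative in the caput, was higher there (-2.78 ± 0.16, adjusted p = 1.0e-08). Of 19 Ly6 and PATE proteins, small cysteine-rich proteins of membranes and secretions, 7 were higher in the cauda and 8 in the caput. Ly6g5c (-10.95 ± 0.54), Ly6g5b (-10.73 ± 0.57) and Lypd8 (-9.15 ± 0.22) stood at one end and Ly6f (9.1 ± 0.24) and Pate2 (4.36 ± 0.33) at the other. Of 10 RNase A family genes, 7 were higher in the cauda and 2 in the caput. Rnase10, which lacks ribonuclease activity and in mice is needed for sperm to acquire surface adhesion, measured 3528, 3905 and 4915 against 1.41, 0.66, 17.5, 1.29 and 1.12 TPM (-10.29 ± 0.51, adjusted p = 3.0e-09). Rnase9, another member of that family, was higher in the cauda, at 2.07, 4.21 and 51.2 against 67.1, 60.7, 127, 72.3 and 87.5 TPM (3.25 ± 0.70, adjusted p = 0.0013). The Rnase9 groups did not overlap, yet its highest caput library came close to the lowest cauda library.

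Enzymes that handle oxidants and glutathione were called in both regions, where 30.8% of all tested genes were higher in the cauda and 15.8% in the caput. Of 24 glutathione peroxidases and other antioxidant enzymes, 9 were higher in the cauda and 7 in the caput (median 0.07, and -0.16 after median-of-ratios rescaling). Beside Gpx5, the caput had more Gpx6 (-2.8 ± 0.15), Sod3 (-1.79 ± 0.24) and Prdx6 (-1.51 ± 0.08), and beside Gpx3 the cauda had more Hmox1 (2.25 ± 0.64), Gpx1 (1.26 ± 0.16) and Sod2 (1.09 ± 0.07). Gamma-glutamyl transferases and glutathione transferases gave 11 higher in the cauda and 7 in the caput of 25. Ggt1, which breaks down extracellular glutathione, was a caput gene (-2.2 ± 0.17, adjusted p = 2.4e-07), as was Ggt7 (-4.11 ± 0.082), whereas Gsta2 (3.93 ± 0.21) and Gstm5 (2.4 ± 0.14) were cauda genes. Of 11 ADAM proteases 5 were called, near the 46.6% of all tested genes. Adam28 (-8.0 ± 0.21, adjusted p = 8.2e-12) and Adam15 (-0.81 ± 0.087) were higher in the caput. Adam8 (2.44 ± 0.69), Adam23 (1.22 ± 0.20) and Adam9 (0.83 ± 0.17) were higher in the cauda.

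Genes of lumicrine signalling were called mainly in the caput. Of 23 tested, 13 were higher in the caput and 2 in the cauda (median -1.07), against 15.8% and 30.8% of all tested genes. Etv4 and Etv5, ETS transcription factors at the end of the ERK pathway, measured 110.3, 122 and 133 against 0.52, 0.70, 0.81, 0.23 and 0.94 TPM and 290.1, 306 and 342 against 7.38, 6.4, 7.01, 7.4 and 7.35 TPM. Their differences were -6.24 ± 0.11, adjusted p = 4.5e-13 and -5.26 ± 0.076, adjusted p = 1.3e-13, and each group was tight. Ros1, the receptor kinase through which the testicular signal NELL2 acts, was higher in the caput (-2.85 ± 0.084, adjusted p = 2.6e-11), as were the ERK feedback genes Dusp6 (-3.21 ± 0.15) and Spry1 (-2.49 ± 0.13) and the secreted protease Ovch2 (-8.76 ± 0.34, adjusted p = 3.4e-10), which in mice lies downstream of this pathway. The exceptions were Fgfr2 (2.56 ± 0.11), a receptor for fibroblast growth factors, and the kinase Src (0.72 ± 0.093), both higher in the cauda.

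Hox genes set position along the body and the reproductive duct. Of 41 in the table, 31 were tested, and 15 were higher in the caput and 9 higher in the cauda (median -0.44). Among all tested genes the shares were 15.8% and 30.8%. Every tested member of paralogue groups 10 and 11, the most posterior ones above the filter, was higher in the cauda: Hoxa10, Hoxa11, Hoxc10, Hoxd10 and Hoxd11. Hoxa10 measured 2.0, 3.13 and 6.03 against 27.9, 19.9, 14.1, 41.6 and 29.8 TPM (2.62 ± 0.27, adjusted p = 2.8e-06), and Hoxa11 0.38, 0.685 and 0.85 against 19.1, 9.62, 9.63, 22.6 and 14 TPM (3.21 ± 0.21, adjusted p = 3.6e-08). Hoxc10 was listed at 0 in all caput libraries and measured 1.3, 2.16, 1.43, 4.61 and 3.64 TPM in the cauda. In each of these genes every cauda library was above every caput library. A gene under 1 TPM in the caput could pass the filter only through the cauda, as Hoxa11 and Hoxc10 did. Their direction was thus set by the filter. Hoxa11os, which is antisense to Hoxa11, moved with it (1.82 ± 0.14), and whether the quantification used strand is not given in the sources used here. All 15 caput calls were in groups 1 to 9. Hoxb1, of group 1, measured 4.14, 4.75 and 6.49 TPM in the caput and 0.050, 0, 0, 0 and 0 TPM in the cauda (-2.54 ± 0.095, adjusted p = 2.4e-10), and passed the filter only through the caput. Hoxc6 (-1.94 ± 0.24), Hoxa3 (-1.78 ± 0.096) and Hoxc8 (-1.77 ± 0.21) followed. Hoxb4 (1.38 ± 0.12), Hoxd3 (0.61 ± 0.12) and Hoxa9 (0.60 ± 0.17) were exceptions, higher in the cauda.

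Hormone-related genes were called in both directions. Of 22 nuclear receptors and cofactors 7 were higher in the cauda and 4 in the caput, and of 8 genes of steroid metabolism 3 and 3, where 30.8% and 15.8% of all tested genes were so called. Srd5a1 and Srd5a2, the enzymes that make dihydrotestosterone from testosterone, were both higher in the caput (-1.95 ± 0.21, adjusted p = 3.9e-06 and -1.6 ± 0.19, adjusted p = 9.5e-06; -2.16 and -1.81 without cauda 3). Of 13 retinoid genes 4 were higher in the cauda and 2 in the caput. Crabp2, which carries retinoic acid to its receptors, measured 0.49, 1.18 and 2.35 against 119.8, 145, 177, 156 and 145 TPM (6.11 ± 0.19, adjusted p = 5.2e-11), while its relative Crabp1 was higher in the caput (-1.94 ± 0.17).

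Genes for transport and for the seal between cells differed in both directions. Of all tested genes 30.8% were called higher in the cauda and 15.8% in the caput, and the counts here are read beside those shares. Claudins make up tight junctions, and 4 of 13 were higher in the cauda and 6 in the caput. Cldn2 and Cldn10, which form pores for small ions, measured 201, 259.9 and 271 against 1.39, 1.27, 2.18, 1.74 and 1.32 TPM and 300.3, 363 and 407 against 13.6, 12.3, 23.9, 8.91 and 10.6 TPM (-6.61 ± 0.11, adjusted p = 3.8e-13 and -4.66 ± 0.19, adjusted p = 6.9e-10). Cldn8, a sealing claudin, measured 1.2, 3.4 and 5.15 against 66.4, 60.0, 58.4, 37.6 and 41.2 TPM (3.64 ± 0.24, adjusted p = 4.4e-08), and Cldn23 rose as well (5.03 ± 0.18). Every caput library was thus above every cauda library in Cldn2 and Cldn10 and below it in Cldn8 and Cldn23. Of 19 transporters of osmolytes and nutrients 9 were higher in the caput and 7 in the cauda. Slc38a5, a glutamine and serine transporter, measured 1835, 2160.2 and 3168 against 1.8, 2.86, 7.84, 2.07 and 4.78 TPM (-8.99 ± 0.27, adjusted p = 3.5e-11). The cauda had more Slc22a5, the carnitine transporter (5.79, 7.98 and 8.39 against 81.8, 78.3, 107, 70.2 and 73.5 TPM; 3.26 ± 0.12, adjusted p = 2.5e-10), Slc6a6, the taurine transporter (3.37, 4.87 and 5.54 against 41.2, 32.3, 47, 29.9 and 42.7 TPM; 2.79 ± 0.14, adjusted p = 2.8e-09), and Slc16a1, a lactate carrier (3.27 ± 0.14).

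Genes for acid and water handling were likewise called in both directions. Of 22 genes of the proton pump and of clear cells, the acid-secreting cells of the epididymis, 6 were higher in the cauda and 1 in the caput (median 0.38), against 30.8% and 15.8% of all tested genes. Their summed level was 3762, 4033 and 4138 TPM in the caput and 2919.9, 3541 and 3852 TPM in the cauda (lowest, median, highest), so that the sum was not raised in the cauda. Atp6v1c2 (3.56 ± 0.13, adjusted p = 1.9e-10), Atp6v1g3 (1.8 ± 0.11) and Atp6v1b1 (1.5 ± 0.19), pump subunits, rose toward the cauda, and Foxi1, the transcription factor of such cells, rose less (0.61 ± 0.16, adjusted p = 0.0055). Among 20 acid, salt and water transporters, 8 were higher in the cauda and 5 in the caput. The sodium-proton exchanger Slc9a3 (2.43 ± 0.14) and its scaffold Slc9a3r1 (3.17 ± 0.087) were cauda genes, while Slc9a2 (-1.5 ± 0.17), Slc4a4 (-1.69 ± 0.077) and the chloride channel Cftr (-1.59 ± 0.075) were caput genes. Car4, a membrane-bound carbonic anhydrase, was at 12.2, 62 and 194 TPM in the cauda (lowest, median, highest) and 0.42, 0.66 and 0.83 TPM in the caput (4.96 ± 0.53, adjusted p = 4.4e-06), with a wide cauda spread. Of 4 aquaporins, Aqp9 (1.58 ± 0.11), Aqp5 (1.4 ± 0.26) and Aqp11 (1.13 ± 0.083) were higher in the cauda and Aqp1 higher in the caput (-1.41 ± 0.24).

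**Figure D4:**
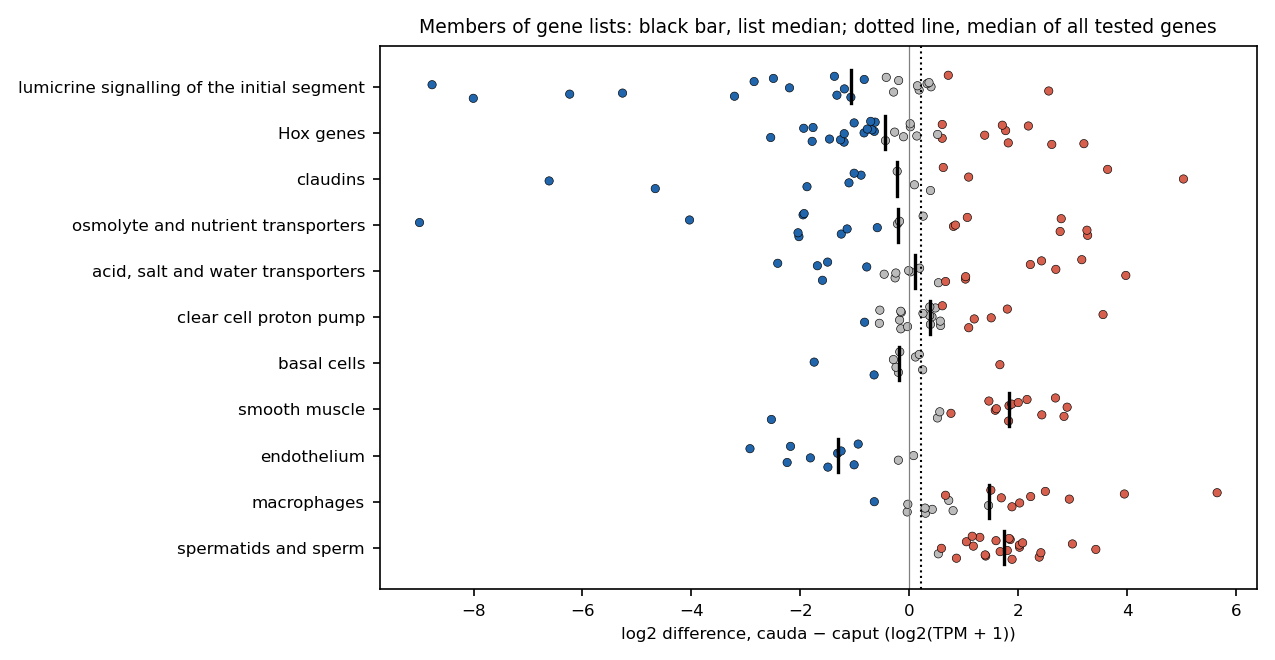
Differences between cauda and caput, as log2(TPM + 1), of the tested members of 11 gene lists, with called members in orange (cauda) or blue (caput), others in grey, the list median as a black bar and the median of all genes, 0.22, as a dotted line. Smooth muscle (median 1.83) and sperm genes (1.73) lie to the right of the dotted line and lumicrine (-1.07) and endothelial genes (-1.32) to its left.

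Other cells of the tissue were measured through their markers. Counts of calls here are read beside the 30.8% of all tested genes called higher in the cauda and the 15.8% in the caput. Smooth muscle genes gave 13 higher in the cauda and 1 in the caput of 16 (median 1.83). Myh11, the smooth muscle myosin, measured 15.8, 22.8 and 28 against 264, 126, 106, 254 and 181 TPM (2.9 ± 0.24, adjusted p = 4.7e-07). The exception was Actg2, the gamma actin of visceral muscle, at 3873, 4328 and 4655 against 920.5, 439.7, 412, 1424 and 983 TPM (-2.53 ± 0.28, adjusted p = 6.2e-06), and with that abundant gene included the summed level overlapped, at 5281, 5663 and 5901 TPM in the caput and 3645, 7689 and 11911 TPM in the cauda (lowest, median, highest). Endothelial genes went the other way, with 9 of 11 higher in the caput (median -1.32). Plvap, of fenestrated capillaries, measured 37.3, 41.2 and 45.5 against 2.64, 2.57, 2.55, 3.54 and 25.4 TPM (-2.92 ± 0.45, adjusted p = 9.1e-05), cauda 6 being far above the other cauda libraries. The endothelial sum was 212, 215 and 235 TPM in the caput and 57.7, 67.8 and 152 TPM in the cauda. Basal cell genes were nearly level, with 1 higher in the cauda and 2 in the caput of 10 and sums of 283, 321 and 356 and 289, 342 and 362 TPM. Ciliated and efferent duct genes gave 4 higher in the caput of 7, among them Foxj1 (-3.01 ± 0.15), with sums of 158, 159.7 and 176 and 67.7, 73.5 and 84.4 TPM. The part of these cell types in the regional differences of other genes was not tested.

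Sperm carry spermatid RNA into the duct. Of 22 spermatid and sperm genes 21 were higher in the cauda (median 1.73), against 30.8% of all tested genes. The summed level was 344, 585 and 725 TPM in the caput and 2192, 2448 and 2888 TPM in the cauda, without overlap. Odf1, of the tail's outer dense fibres, differed by 3.43 ± 0.17, adjusted p = 3.7e-09, Smcp, of the mitochondrial capsule, by 3.0 ± 0.16, adjusted p = 5.5e-09, and the protamine Prm2 by 2.02 ± 0.18, adjusted p = 8.8e-07. Genes of the seminal vesicle were a smaller signal. Svs1 was higher in the cauda (5.36 ± 0.27), and Svs4 was listed at 0 in every caput library. The list of vas deferens and accessory glands summed to 1.01, 2.56 and 2.67 TPM in the caput and 33.5, 89.7 and 113 TPM in the cauda, with Pbsn and Sbp at 0 in both regions.

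Macrophage genes were higher in the cauda in 10 of 19 and in the caput in 1 (median 1.46), against 30.8% and 15.8% of all tested genes. The cauda libraries, however, differed greatly among themselves. The summed macrophage level was 746, 830.0 and 879.9 TPM in the caput, and 7264, 1946, 2239, 487 and 6223 TPM in cauda 1, 2, 3, 5 and 6. Cauda 1 and 6 were thus high and cauda 5 was below every caput library. Gpnmb, a glycoprotein of lipid-laden macrophages, measured 51.2, 61.4 and 87.1 against 1817, 420.5, 414, 94.6 and 980.2 TPM (2.94 ± 0.57, adjusted p = 6.4e-04), with no overlap. Spp1, osteopontin, measured 0, 0.305 and 0.61 against 650.5, 142, 85, 0 and 141 TPM (5.65 ± 1.24, adjusted p = 0.0015), overlapping through cauda 5, which was at 0. Without cauda 5 the differences were 3.53 for Gpnmb and 7.16 for Spp1. The pan-macrophage genes Csf1r (-0.027 ± 0.31) and C1qa (-0.038 ± 0.22) were not called, and Cx3cr1 was higher in the caput (-0.64 ± 0.12, adjusted p = 4.9e-04). Lyz2 (2.23 ± 0.79, adjusted p = 0.025) and Tyrobp (1.5 ± 0.54, adjusted p = 0.026) lost their calls when single libraries were left out, with adjusted p up to 0.0674 and 0.0716. GF cauda 4, left out of the comparison, had a macrophage sum of 26248.6 TPM and a Cd52 level of 15152 TPM, below that of each of the 5 cauda libraries used.

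Other immune genes were called in some lists and not in others, against 30.8% of all tested genes called higher in the cauda and 15.8% in the caput. S100a8, a neutrophil protein, was higher in the cauda (5.37 ± 0.26, adjusted p = 2.4e-09), but the other of the 2 tested neutrophil genes was not called. None of the 4 tested T and NK cell genes and none of the 2 tested B cell genes was called by limma, nor any H2 class II chain, although H2-DMa (-2.19 ± 0.16) and H2-DMb1 (-1.49 ± 0.21), which load peptides, were higher in the caput. Without adjustment 1 of the T and NK cell genes and 1 of the B cell genes had a p under 0.05. Interferon response genes were higher in the cauda in 6 of 10 (median 0.63), led by Gbp2 (1.19 ± 0.24) and Ifit3 (1.14 ± 0.30), but in only 4 after median-of-ratios rescaling, and in 3, with 1 higher in the caput, after quantile normalization. Of 11 innate epithelial defence genes 5 were higher in the cauda and 2 in the caput. Tlr5, the receptor for flagellin, was among the former (1.81 ± 0.17, adjusted p = 1.1e-06), and the adaptor Myd88 among the latter (-0.91 ± 0.083). Of 9 neuropeptides and granins 4 were higher in the cauda and 2 in the caput. Kiss1, kisspeptin, measured 30.1, 47.8 and 122 against 2.07, 6.68, 5.18, 2.18 and 7.25 TPM (-3.51 ± 0.40, adjusted p = 8.2e-06), and Vip, vasoactive intestinal peptide, measured 1.35, 1.88 and 2.57 TPM in the caput and was listed at 0 in all cauda libraries, whereas Nmb, neuromedin B, was higher in the cauda (2.25 ± 0.15).

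The same comparison in mice with microbes shared no library with the one in GF mice. In SPF mice 4899 of 12425 genes (39.4%) were called, in the second SPF set 6525 of 12975 (50.3%) and in recolonized GF mice 5354 of 12936 (41.4%). Over genes tested in both, r of the regional differences with those of GF mice was 0.957 in SPF (12146 genes), 0.940 in the second set and 0.950 in recolonized mice, a description across genes that are not independent. Of the genes at least 8-fold higher in the GF cauda, 179 were so in SPF, 79.6% of the GF list and 90.4% of the SPF list (1.59% of all genes tested in SPF). Of those at least 8-fold higher in the GF caput, 215 were so in SPF, 91.5% and 85.3% of the lists (2.03% of all genes tested in SPF). With the 1.5-fold threshold, 216 of 221 such cauda genes and 232 of 234 such caput genes that were tested in SPF were called there in the same direction, against 21.1% and 18.4% of all genes tested in SPF. The cauda genes not called in SPF were Bcl2a1b, Cfp, Lpl, Odf1 and Tppp2.

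Single lead genes had similar regional differences in all 4 groups, given as GF, SPF, second SPF set and recolonized GF. Lcn8 differed by -12.09, -12.4, -12.85 and -12.86, Gpx5 by -9.19, -8.66, -8.86 and -9.39, Cd52 by 6.61, 6.87, 6.94 and 7.06, and Etv5 by -5.26, -5.11, -5.45 and -5.59. Defb47 differed by -10.26, -11.61, -10.56 and -10.39, Defb43 by 7.61, 7.97, 8.26 and 8.27, Defb11 by 11.38, 11.02, 11.37 and 11.15 and Defb15 by -7.85, -6.88, -8.46 and -8.33. The opposite directions of these neighbours were thus present in all 4 groups. Spag11a, the neighbour of Spag11b, was different, at 1.82, 1.66, -0.23 and -0.84. It was called higher in the cauda in GF and SPF mice and not called in the second SPF set (adjusted p = 0.56). In recolonized mice it was called higher in the caput (adjusted p = 0.024). The limma interaction gave an excess in GF of 2.66 over recolonized mice (adjusted p = 0.0046) and 2.05 over the second SPF set (adjusted p = 0.0021). Over the first SPF set it was 0.17 (limma interaction, adjusted p = 0.87). Caput means of Spag11a were 68.9 and 121 TPM in GF and SPF, and 338 and 319 TPM in the second SPF set and recolonized mice. Hoxa10 differed by 2.62, 1.15, 2.19 and 2.74 and Hoxb1 by -2.54, -2.84, -2.66 and -2.38. A few genes spread more widely, such as Npy (8.64, 7.8, 4.84 and 6.47), Rnase9 (3.25, 4.84, 0.63 and 0.017) and Mfge8 (-4.67, -6.33, -7.09 and -7.29). Caput means of Rnase9 split as those of Spag11a did, at 15.1, 7.03, 141 and 233 TPM. List medians in the same order were -5.89, -5.35, -5.99 and -6.07 for lipocalins, 1.83, 2.02, 2.02 and 2.15 for smooth muscle, -1.32, -1.48, -1.7 and -1.62 for endothelium, 1.73, -0.17, 0.90 and 1.57 for sperm genes and 1.46, -0.31, -0.51 and -0.72 for macrophage genes. The macrophage list thus had a positive median in GF mice and negative medians in the other 3 groups, and the sperm list was near 0 in the first SPF set alone. The cauda libraries 1 to 4 of that SPF set spread widely in sperm genes. Odf1 measured 32.9, 229, 56.4 and 2.17 TPM there and Smcp 41.2, 232, 67 and 1.68 TPM, so its median rests on unlike libraries.

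**Figure D5:**
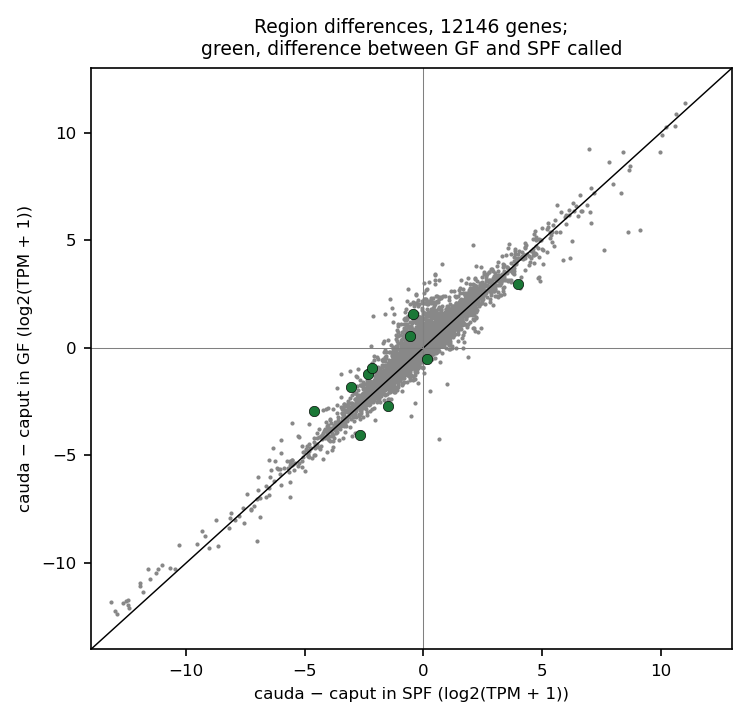
Regional difference, cauda minus caput in log2(TPM + 1), of 12146 genes in SPF mice (x axis) and GF mice (y axis), with the line of equality and, in green, the 10 plotted genes whose difference between GF and SPF was called. The points follow the line (r = 0.957), and the green genes lie close to it relative to the whole range.

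Whether the regional difference itself differed between GF and SPF mice was tested as an interaction over 12481 genes. It was called in 11 (0.0881%), 6 with a higher (0.0481%) and 5 with a lower (0.0401%) difference in GF, by limma with the same thresholds. Without adjustment 1434 genes had a p under 0.05, of which 1182 were higher in GF, and the median over all genes was 0.13. No interaction was called among the tested lipocalins, beta-defensins, protease inhibitors, Hox genes, lumicrine, sperm or macrophage genes, although the macrophage list had a median interaction of 1.25 and the sperm list 1.82, with an unadjusted p under 0.05 in 12 of 19 and 19 of 22 genes. That count of 0 depended on single libraries: without GF cauda 5, 11 of 19 macrophage genes, Spp1 among them, 3 of 22 sperm genes, Spint5 and Hoxa11os were called, and without SPF cauda 2, 15 of 22 sperm genes, Odf1 and Smcp among them, and the lipocalin Lcn2. With library weights 11 macrophage genes, 5 sperm genes, Hoxa11os and the beta-defensins Defb22 and Defb26 were called, and with a pseudocount of 5, 3 sperm genes. Over all genes the calls numbered 309 without GF cauda 5, 162 without SPF cauda 2, 294 with library weights and 0 with the replicate number as a block. Without adjustment such a p was found in 0 of 12 lipocalins, 4 of 37 beta-defensins, 2 of 49 protease inhibitors, 8 of 31 Hox genes and 4 of 23 lumicrine genes. The called members of any list were Gm3434, Slc6a13 and Chga. With the second SPF set in place of the first, 2427 interactions were called, and with recolonized GF mice 446. The number of calls thus changed with the comparison group, and colony, housing and microbiota cannot be told apart here.

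The interaction genes were moderate in size. 5031439G07Rik, an uncharacterized gene, measured 19.2, 22.6 and 24.6 TPM in the GF caput and 43, 30.2, 34, 29.5 and 31.4 TPM in the GF cauda, and 18.4, 19.6, 21.1 and 20.6 TPM in the 4 SPF caput and 13.7, 13.1, 12.9 and 12.6 TPM in the 4 SPF cauda libraries. It was thus higher in the cauda in GF and lower in the cauda in SPF, with no overlap in either, and the difference of differences was 1.14. In recolonized GF mice, however, its regional difference was 0.59, like that of GF mice. None of the 11 genes kept its call with recolonized GF in place of SPF, where 3 reversed, 7 were weaker and Chga was not tested. With the second SPF set in place of SPF, 9 of the 11 stayed called. Smim24, which encodes a small membrane protein, measured 10.4, 16.4 and 22.1 against 47.8, 43.1, 58, 51.6 and 47.5 TPM in GF, and 15, 20.6, 25.4 and 23.9 against 12.2, 28.2, 18 and 7.66 TPM in SPF, a difference of 2.01. Bcl2l15, of the BCL2 family, measured 185, 189 and 194 against 140.0, 132, 126, 144 and 126 TPM in GF, and 193, 201, 192 and 172 against 241, 202, 185 and 218 TPM in SPF, a difference of -0.66. Among the 11, 5031439G07Rik and Chga stayed called in all 19 fits that each left out 1 library, and the other 9 were called in 3 to 9 of them. Chga averaged 0.062 and 0.63 TPM in the GF caput and cauda and 0.16 and 8.39 TPM in the SPF caput and cauda. It passed the filter only through the SPF cauda, was not tested within GF mice, and the sign of its interaction was thus set by the filter.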

How the data were processed

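Total RNA of snap-frozen tissue was selected for polyadenylated RNA with oligo(dT), made into stranded libraries and sequenced in pairs by the authors, who quantified the reads with RSEM against mm10 (versions not given in the sources used here). The deposited TPM, length-corrected transcript abundances of 23845 genes in 62 libraries, were used as they are, since they hold no counts. The authors called their own differences with DESeq2 on raw counts, which were not used here. No 2 columns were identical.

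Genes averaging 1 TPM or more in the 11 libraries entered a limma fit (version 3.58.1, R 4.3.3) of log2(TPM + 1) (two-sided, Benjamini-Hochberg over all tested genes, called at 0.05 and 1.5-fold), after the procedure was tested on simulated data. The interaction of region with GF or SPF was fitted over 19 libraries. Shares and gene numbers were compared by exact permutation of the region labels with scipy 1.17.1. For 22552 genes the symbol was found in RefSeq's annotation of GRCm38.p6, whose coordinates are those of mm10. Promoter windows come from the same annotation.

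Replicates are separate animals. The members and gene lists were chosen with earlier results of these data known. Named genes are the 15 largest rises and 15 largest falls among called genes without overlap and with at least 10 TPM in the higher region, all caput and cauda markers, up to 8 called members of each other list with the largest difference, every member of a list with 12 or fewer members in the table, and every called interaction gene. Genes outside that rule, among them Defb48, Defb15, Csf1r, C1qa, Wfdc9, Wfdc10 and Gpx1, were named after their values were seen. Alternatives were another pseudocount, filter, scaling, spread model and pairing, each library left out, GF cauda 4 kept in, and other comparison groups. Numbers shared by caput and cauda libraries were not taken as pairs, since the labels do not give pairs. Correlations of deviations ran from -0.009 to 0.139 for same-numbered libraries and from -0.140 to 0.144 for others. The same-numbered caput was the closest to cauda 1, 5 and 6 but not to cauda 2 and 3, so shared animals remain possible. Results for a few genes are not reported here.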

Additional observations from a re-analysis of the deposited data

Results flagged for a closer look

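Single libraries stood apart within their group in 21 of 148 sets of values examined, by the gap to the nearest other library as a share of the group's whole range. Chance alone would mark roughly 1 set in every 20. In GF cauda 3 the highest value stood apart for Lcn9 (0.743 of the range), Defb20 (0.779), Defb48 (0.853), Cst11 (0.874), Cst8 (0.774), Teddm1a (0.750), Clpsl2 (0.908), Ly6g5c (0.822) and Rnase10 (0.845), all caput genes, and for the cauda genes Wfdc16 (0.941), Cldn23 (0.762) and Atp6v1c2 (0.780). In GF caput 6 the lowest value stood apart for Ros1 (0.744), Cldn8 (0.641) and the number of genes above 0 TPM (0.829). In GF caput 3 it did for Cldn2 (0.673) and Slc22a5 (0.660). The highest value stood apart for Plvap in GF cauda 6 (0.877), Smcp in GF caput 5 (0.630), Defb9 in GF caput 2 and Defb40 in GF caput 3, the last 2 because every other caput library was at 0 (a share of 1).

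The regional difference differed between GF and SPF mice, by a tested interaction, in 11 genes. It was higher in GF for Smim24 by 2.01, Gm3434 by 1.69, Ubxn10 by 1.23, Galnt14 by 1.23, 5031439G07Rik by 1.14 and Efna3 by 1.09 on the log2 scale. It was lower in GF for Chga (-2.35), Slc6a13 (-1.36), BC021614 (-1.22), Slc46a2 (-1.02) and Bcl2l15 (-0.66), of which Chga passed the filter only through the SPF cauda.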

How the results depend on the processing

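The regional calls depended most on how low values were treated. A pseudocount of 5 gave 3585 called genes (2135 higher in the cauda; 95 and 121 at 8-fold or more in cauda and caput), a filter at a mean of 5 TPM gave 3644 (2177 higher in the cauda), and a pseudocount of 0.1 gave 421 and 405 at 8-fold or more. Leaving out single libraries gave 5518 to 6003 called genes, 3480 to 4048 higher in the cauda and 1914 to 2038 higher in the caput, and 217 to 243 and 229 to 238 at 8-fold or more. Of 268 named genes, of which 210 were also tested with the filter at 5 TPM, 251 kept their side of the threshold in each fit that tested them, 17 changed it, among them Fabp4, Usp18, Col3a1, Lyz2 and Lcn12, and 0 changed direction. The 50 most abundant genes held 3.47 percentage points less in the cauda (difference -3.47, exact permutation p = 0.022), and genes above 0.1 TPM numbered 570 more in the cauda (exact permutation p = 0.095).

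Interactions of region with GF or SPF were far less stable, at 1 gene with a pseudocount of 0.1, 41 with 5, 6 with no filter, 7 with a filter at 5 TPM, 5 after median-of-ratios rescaling, 294 with library weights, 17 with limma trend and 1 with GF cauda 4 kept in. Leaving out single libraries gave 2 to 309, with 162 without SPF cauda 2 and 309 without GF cauda 5. With the second SPF set in place of SPF it was 2427 (1565 when rescaled) and with recolonized GF 446 (50 when rescaled), the rescaled ones chosen after the data were seen. Of the 11 genes called against SPF, 9 stayed called against the second SPF set. Against recolonized GF none stayed called, 7 being weaker and 3 reversed. The reversed genes were 5031439G07Rik at -0.026 (-0.35 rescaled), Slc46a2 at 0.34 (0.054) and Ubxn10 at -0.54 (-0.80). Ubxn10 was also -0.066 against the rescaled second SPF set. The cause was not tested.

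With the replicate number as a block, 5785 genes were called between regions (3847 higher in the cauda, 1938 in the caput) and 0 interactions. The numbers are not known to pair the libraries. Cauda 2 deviated more with caput 3 (0.144) than with caput 2 (0.121), and cauda 3 more with caput 4 (0.089) than with caput 3 (-0.009). Cauda 1, 5 and 6, however, deviated most with the same-numbered caput (0.097, 0.079 and 0.139). Depth is unknown, so genes near 0 TPM carry unknown counting error.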

Other observations

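Within the GF caput, libraries differed together in a few genes, a pattern chosen after the data were seen and not tested. Npy measured 1.01, 14, 2.69, 7.23, 16.2 and 2.23 TPM in caput 1 to 6, Serpina1f 2.22, 19, 2.29, 7.09, 25.1 and 2.35 TPM, and Rnase9 2.58, 26.6, 2.07, 5.83, 51.2 and 2.56 TPM. Caput 5, 2 and 4 were the 3 highest in each of these cauda genes. Defb15, a caput gene, had the same 3 libraries on top, at 329, 1298, 602, 975, 1845 and 404 TPM.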
